A study of Mus musculus with 28 samples.

Results

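Genes of the cortical projection neuron programme, 9 in all, were followed through 28 single mouse brain cells, in counts of reads on exons and on introns. They were Tbr1, Bcl11a, Bcl11b, Fezf2, Neurod1, Neurod2, Neurod6, Cux1 and Cux2, chosen by name as transcription factors known from the excitatory neurons of the cortex. They are 9 of the 23453 genes in the exonic table and 9 of the 20422 in the intronic table. The sample labels name 12 neurons and 8 astrocytes from C57/BL6 cortex, grown in primary culture and collected by pipette, and 8 interneurons from C57/BL6/N cortex, collected with a patch clamp pipette from acute slices that covered different layers of the prefrontal cortex. The methods of the study describe the cultures as dispersed cells of mouse embryos of both sexes, whereas the growth text of the labels gives a perfused and fixed male mouse of 3 months for them, so the age of the cultured cells is uncertain here. No age is given for the sliced mice, and no treatment, transgene or sort is named for any cell. The animal or culture that a cell came from is not labelled either.

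The 28 columns of counts carry codes for which the sample labels give no counterpart, and none has a labelled cell type. The cells were set out in 3 blocks of codes, which are 12 cells from BRP528 to BRP543, 8 cells from BRP564 to BRP572 and 8 cells whose codes begin with F. These block sizes equal the labelled numbers of neurons, astrocytes and interneurons. Any identity of a block is presumed from its size and its marker genes, and the blocks are called by their codes throughout. All cells were treated as 1 pooled sample, so the differences between blocks are descriptions and no test was made. The library kit and the sequencer differ by label between cultured and sliced cells, so a difference that follows the source of the cells cannot be told apart from these.

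Excitatory projection neurons of the cortex arise from progenitors of the dorsal forebrain, and their layer and target identity is set by transcription factors that restrain one another. Tbr1 is known from deep-layer corticothalamic neurons, Fezf2 and Bcl11b (Ctip2) from subcerebral projection neurons, Bcl11a (Ctip1) from several layers, and Cux1 and Cux2 from upper layers. Neurod1, Neurod2 and Neurod6 are basic helix-loop-helix (bHLH) factors that follow the proneural Neurog genes. They bind DNA in pairs with E proteins at a short sequence called the E-box.

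**Figure D1:**
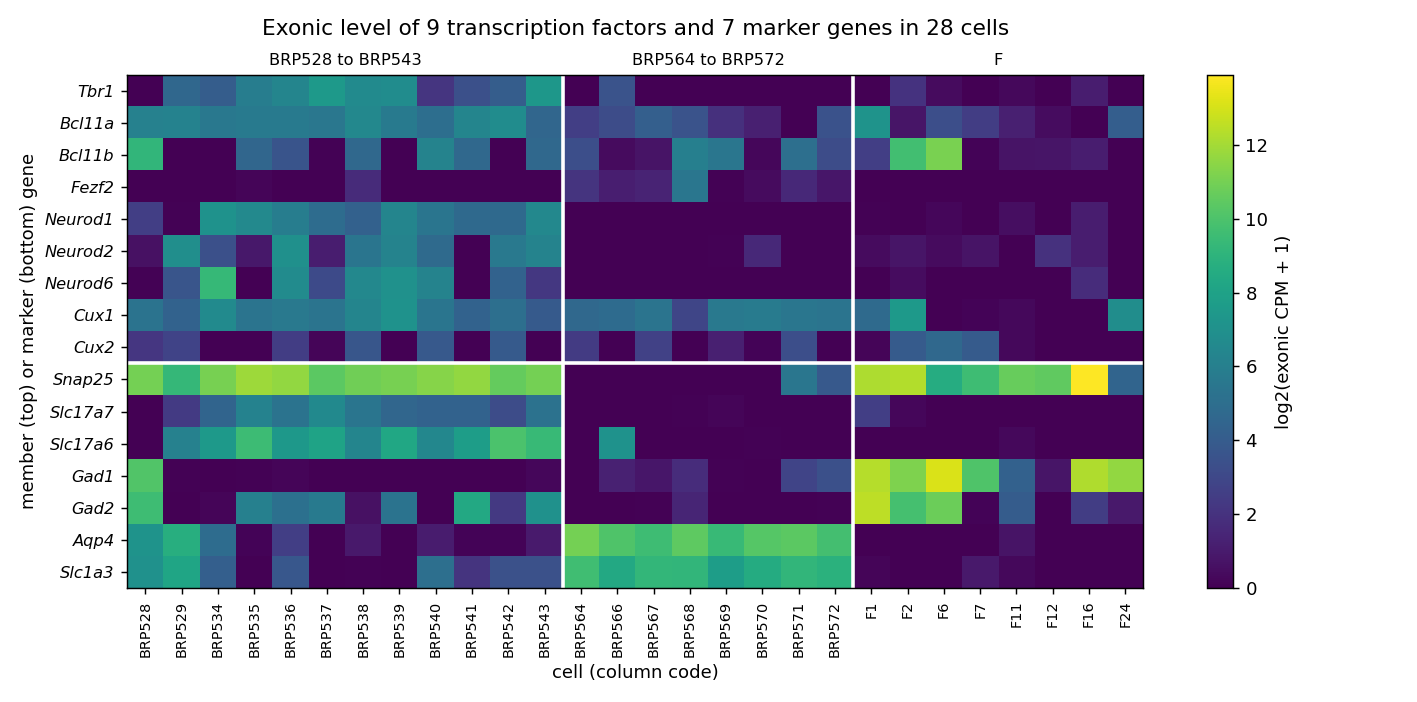
Exonic level of the 9 genes (top rows) and of 7 marker genes (bottom rows) in each of the 28 cells (columns), as colour on a log2 scale of counts per 1000000 exonic counts with 1 added. White lines separate the 3 blocks of column codes and the markers from the 9 genes. The 3 Neurod genes and Tbr1 are bright in most cells of BRP528 to BRP543 (not in BRP528 itself) and close to 0 in most cells of the other blocks, while Bcl11b is brightest in F6 and F2.

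E-boxes also lie in the promoters of some of the Neurod genes themselves. The 250 bases before the RefSeq start (GRCm38.p6, minus strand, written 5′ to 3′) are shown for Neurod2 and Neurod6, as the pair of bHLH genes with more than 1 E-box there, with each CANNTG in capitals.

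Neurod2, chr11:98329646-98329895: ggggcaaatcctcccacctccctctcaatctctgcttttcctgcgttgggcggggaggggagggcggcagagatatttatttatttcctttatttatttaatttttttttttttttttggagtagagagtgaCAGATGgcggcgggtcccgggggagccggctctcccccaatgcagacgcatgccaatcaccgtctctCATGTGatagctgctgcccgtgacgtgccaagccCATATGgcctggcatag

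Neurod6, chr6:55681264-55681513: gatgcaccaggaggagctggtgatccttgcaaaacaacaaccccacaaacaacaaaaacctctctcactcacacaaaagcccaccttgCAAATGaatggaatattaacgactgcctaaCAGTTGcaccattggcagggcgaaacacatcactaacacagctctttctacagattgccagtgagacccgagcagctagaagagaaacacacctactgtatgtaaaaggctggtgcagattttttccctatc

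The search used CANNTG, whose reverse complement has the same letters and which therefore reads alike on both strands, and CAGATG with its reverse complement CATCTG, each of which is also a CANNTG. The Neurod2 window held 3 CANNTG, the first of them a CAGATG, and the Neurod6 window held 2. The corresponding window of Neurod1 held 1. At least 1 CANNTG was present in 66.0% of the 27025 genes with such a window, and CAGATG or CATCTG in 14.5%, so these matches describe the windows and do not set them apart.

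Levels are given as counts per 1000000 exonic counts of the cell (CPM). Exonic totals ranged from 17483754 to 26770944 in BRP528 to BRP543, from 12969692 to 19798892 in BRP564 to BRP572 and from 838343 to 14831505 in the F cells, and the median number of genes with an exonic count was 11366.5, 12111 and 4912. Every F cell had fewer genes than any BRP cell, and all but F1 had fewer exonic counts. The reads were amplified and no molecular identifiers are described, so counts are not independent molecules. The intervals below are for shares of cells taken as independent draws, and they cover neither the amplification nor differences between animals or cultures.

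Marker genes differed strongly between the blocks. The summed level of 7 neuronal markers was 4898 to 9982 CPM in BRP528 to BRP543, 299.5 to 800.8 in BRP564 to BRP572 and 1608 to 17800 in the F cells. The summed level of 10 astrocyte markers was 300.0 to 2910 CPM, 2847 to 7318 and 1.19 to 5637 in the same order. Glutamate transporter markers (Slc17a7, Slc17a6 and Slc17a8, which load glutamate into vesicles) were detected in 11 of the 12 cells of BRP528 to BRP543, and the 4 GABAergic markers summed to 973.2 to 16225 CPM in the F cells. The exceptions matter for the 9 genes. BRP528 had 1136 CPM of Gad1 and 780.5 of Gad2, which make GABA, and no Slc17a7 or Slc17a6 count. Gad2 was not confined to it, with at least 10 counts in 9 of the 12 cells. The next highest were BRP541 at 340.1, BRP543 at 128.0 and BRP535 at 64.3 CPM, cells that also had Slc17a6 counts. BRP541 had 1036 CPM of oligodendrocyte lineage markers as well. BRP529 had 418.4 CPM of the astrocyte water channel Aqp4 beside 607.2 of the synaptic gene Snap25. Among the F cells, Gad1 was only 18.9 CPM in F11 and 0.74 in F12. F7 had the highest sums of astrocyte (5637 CPM) and oligodendrocyte lineage markers (3387 CPM) of the F cells, but few genes carried them. Slc1a2 at 4350 CPM and Glul at 1275 held most of the first, with Aqp4, Aldh1l1, S100b, Aldoc and Gja1 at 0. Olig1 at 3210 CPM held most of the second. F16 had the highest sum of microglial markers (2093 CPM), all of it Csf1r.

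Neurod1, Neurod2 and Neurod6 had their exonic counts almost entirely in BRP528 to BRP543. Neurod1, on chr2:79452521-79456751 (minus strand, GENCODE M21 on GRCm38, as for all positions below), had an exonic count in all 12 of these cells, at a lowest level of 0.045, a median of 35.3 and a highest of 136.4 CPM. It had 0 counts in all 8 cells of BRP564 to BRP572 (95% exact binomial interval for the share of cells, 0 to 36.9%). In the F cells it had 6 counts in all, spread over 4 cells.

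The Neurod1 levels of BRP528 to BRP543 overlapped those of the F cells through a single cell, BRP529, which held 1 count of Neurod1. With the other 11 cells at 4.98 CPM or more and the highest F cell at 1.19, the blocks were otherwise separate. BRP529 was also the cell with most Aqp4 of its block. Summed over cells, Neurod1 was about 2253-fold higher in BRP528 to BRP543 than in BRP564 to BRP572, taking a floor of 3 counts over the whole block that had none. Counts are not independent molecules, so this floor is a setting and not a detection limit, and the fold is not a lower bound. Neurod1 shares 201 exon bases with Cerkl on the same strand and 154 with the noncoding Gm26755 on the opposite strand, so some reads could belong to either. Cerkl held 9 exonic and 470 intronic counts over the 28 cells, and the part of the overlap in the Neurod1 counts was not tested.

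Neurod2, on chr11:98325415-98329648 (minus strand), was present in 11 of 12 cells of BRP528 to BRP543, at 0, 34.6 and 125.3 CPM for the lowest, the median and the highest cell, the order in which levels of a block are given from here on. In BRP564 to BRP572 it was present in 2 of 8 cells, and 41 of its 42 counts there came from BRP570, at 2.07 CPM. In the F cells it was present in 6 of 8, with 0.51 CPM in the median and 2.96 in the highest cell. Within BRP528 to BRP543 the gene was uneven. The 12 cells fell into 8 cells at 9.69 CPM or more and 4 cells, BRP528, BRP535, BRP537 and BRP541, at 1.16 or less, which overlapped with the F cells. Gad2 was at 51.6 CPM or more in these 4 cells. It was also at 128.0 CPM in BRP543, which had 72.1 CPM of Neurod2.

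Neurod6, on chr6:55677822-55681263 (minus strand), had the widest range of the Neurod genes. It was present in 10 of 12 cells of BRP528 to BRP543, at 0, 15.9 and 624.8 CPM, and the highest cell, BRP534, held 57.6% of the block's counts. No exonic count was found in BRP564 to BRP572, and 4 were found in 2 F cells. The block sum was about 4025-fold higher in BRP528 to BRP543 than in BRP564 to BRP572 by the same floor, which again gives no lower bound. BRP535 and BRP541 had no Neurod6 at all and BRP528 had 1 count, and these were also among the cells low in Neurod2.

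All 3 Neurod genes had at least 10 counts together in 8 of the 12 cells, and Tbr1 had at least 10 counts in each of these 8. Neurod2 and Neurod6 shared 9 cells, which were all 9 cells with Neurod6 at that minimum. Over the 12 cells, the Spearman correlation of Neurod2 with Neurod6 was 0.59, a description of 12 cells that share a block and its depth. With Gad2 the correlation was -0.67 for Neurod6, -0.51 for Neurod2, 0.03 for Neurod1 and 0.06 for Tbr1.

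Tbr1, a T-box factor on chr2:61802930-61814114 (plus strand), was present in 11 of 12 cells of BRP528 to BRP543, at 0, 41.9 and 173.0 CPM. The cell without it was BRP528, the cell with most Gad1 and Gad2 of its block and without Slc17a7 or Slc17a6. The other 11 cells ranged from 3.37 CPM in BRP540 to 173.0 in BRP537 and 165.0 in BRP543.

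In BRP564 to BRP572, Tbr1 was found in BRP566 alone, at 10.8 CPM from 169 counts. BRP566 was also the only cell of its block with more than a trace of Slc17a6, at 133.4 CPM. Its Snap25, Syt1, Rbfox3 and Nefl were 0, while Map2 was at 406.0, Stmn2 at 150.2 and Tubb3 at 9.29 CPM. The F cells held 23 counts of Tbr1 over 4 cells, 17 of them in F2, where the level was 3.07 CPM. Over the 12 cells of BRP528 to BRP543, Tbr1 had a Spearman correlation of 0.78 with Slc17a7 and 0.37 with Slc17a6. The first of these was singled out after the values were seen.

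**Figure D2:**
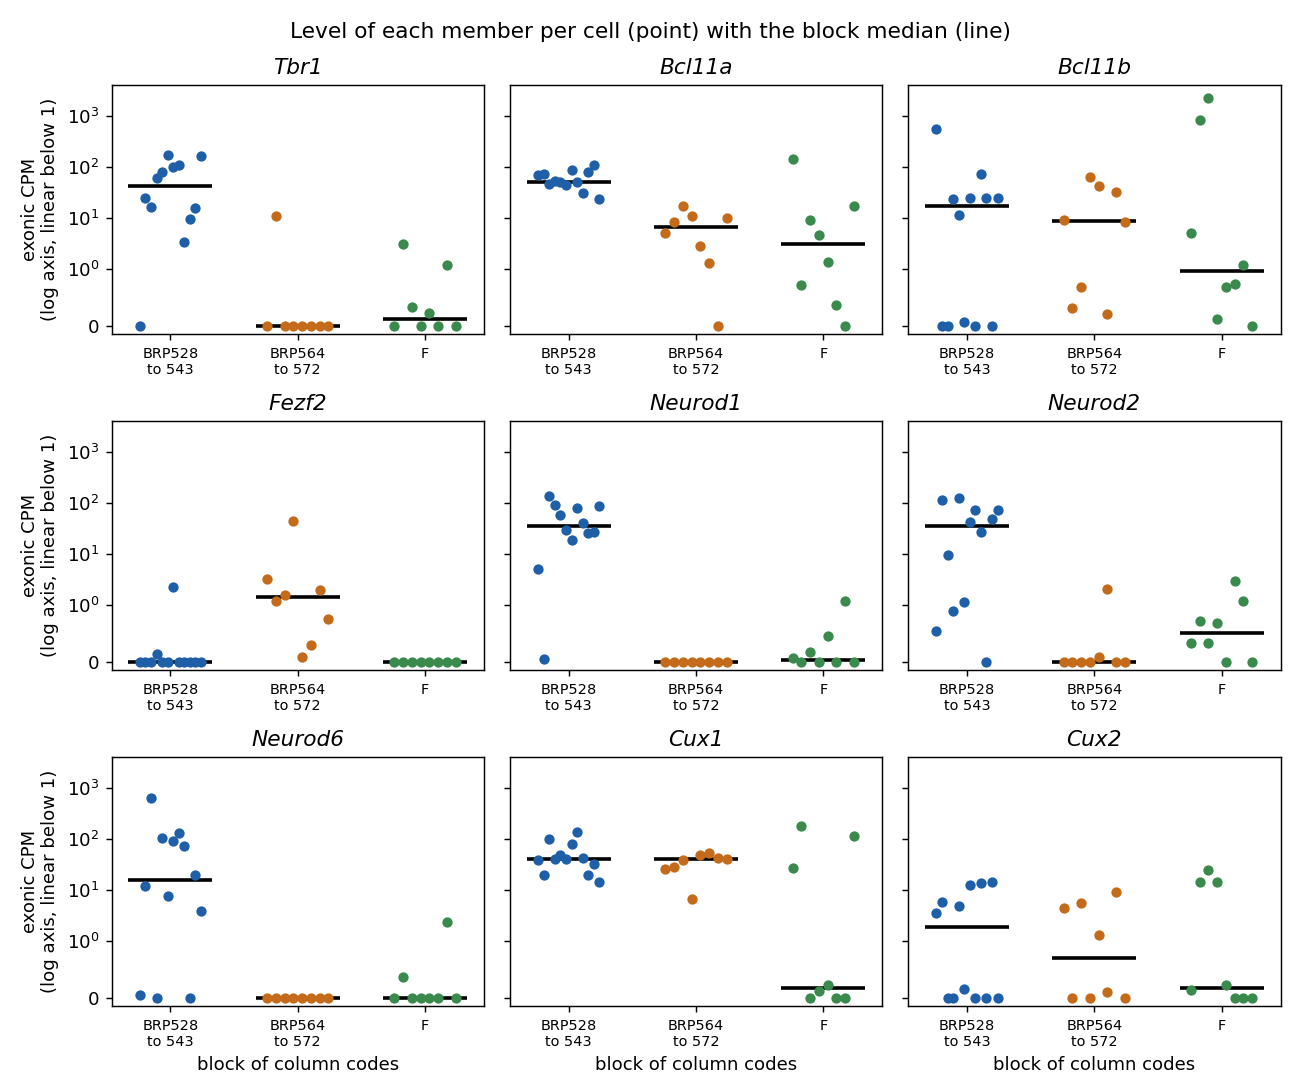
Exonic level of each of the 9 genes in each cell (points), by block of column codes, with the block median as a black line, on an axis of CPM that is logarithmic above 1 and linear below. Neurod1 and Neurod6 are at 0 in every cell of BRP564 to BRP572, Fezf2 is at 0 in every F cell, and Cux1 has medians of 40.1 and 39.6 in the BRP blocks.

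The zinc finger genes Bcl11a and Bcl11b differed from each other. Bcl11a, on chr11:24078056-24174123 (plus strand), was present in all 12 cells of BRP528 to BRP543 at 23.4, 51.5 and 107.7 CPM, the narrowest relative range of the 9 genes in that block. It was found in 7 of 8 cells of BRP564 to BRP572, at 0, 6.68 and 17.5 CPM, all of them below every cell of BRP528 to BRP543. In the F cells the levels were 0, 3.04 and 141.7 CPM. F1 alone held 91.5% of the block's 2298 counts and stood above all BRP cells, and the next F cell, F24, had 17.0 CPM.

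Bcl11b, on chr12:107910403-108003602 (minus strand), had the highest single values of the 9 genes, and these did not follow the blocks. In BRP528 to BRP543 it was present in 8 of 12 cells, at 0, 17.2 and 560.6 CPM, and the highest cell was BRP528, with 76.3% of the block's counts. In BRP564 to BRP572 it was present in all 8 cells, at 0.20, 8.77 and 64.0 CPM. In the F cells it was present in 7 of 8, at 0, 0.97 and 2207 CPM, with F6 holding 85.1% of 31218 counts and F2 at 824.1 CPM.

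The 3 highest cells for Bcl11b, F6, F2 and BRP528, all carried Gad1 at 1136 CPM or more. Bcl11b is known from cortical interneurons as well as from subcerebral projection neurons. Other cells with high Gad1 had little of it, such as F1 at 4.99 CPM and F24 at 0. In BRP528 to BRP543 without BRP528, the highest cell was BRP540 at 73.6 CPM, and 5 cells were at 0.075 or less. In exonic counts Bcl11b was thus present or nearly absent from cell to cell of this block, while Bcl11a was present throughout. BRP534 and BRP542, at 0 exonic counts, held 768 and 183 intronic counts of Bcl11b, and with intronic counts added the gene was present in 11 of the 12 cells.

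Fezf2, a zinc finger gene on chr14:12342094-12348189 (minus strand) that specifies subcerebral projection neurons in the embryo, was nearly absent where Tbr1 and the Neurod genes were present. It had 54 counts in BRP528 to BRP543, 51 of them in BRP538 at 2.28 CPM, and 3 in BRP535. All 8 cells of BRP564 to BRP572 held counts, at 0.077, 1.41 and 43.4 CPM. No F cell had a count (0 of 8 cells, 95% exact binomial interval 0 to 36.9%).

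Of the 872 Fezf2 counts in BRP564 to BRP572, 715 came from BRP568. BRP568 was also the cell with most Bcl11b of its block, at 64.0 CPM, with most Gfap (1584 CPM, an intermediate filament of astrocytes), most Pax6 (203.6 CPM) and most Emx1 (19.8 CPM), the last pair being dorsal progenitor factors. Emx2, another gene of the projection neuron lineage, went the other way. BRP568 had the lowest Emx2 of its block, at 0.061 CPM, where the highest cell had 49.3 CPM. In BRP568 Snap25, Rbfox3, Nefl, Tbr1 and Neurod1 were at 0. Other neuronal markers were not, with Map2 at 484.3, Stmn2 at 237.4, Tubb3 at 53.4 and Syt1 at 11.5 CPM. The summed Fezf2 level of BRP564 to BRP572 was about 110-fold higher than in the F cells, by a floor of 3 counts there that gives no lower bound. BRP568 held 82.0% of the block's counts. Against BRP528 to BRP543 the other 7 cells of the block, between 0.077 and 3.23 CPM, overlapped with BRP538.

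Cux1, a cut-homeobox gene on chr5:136248135-136567490 (minus strand), did not follow the blocks of BRP cells. It was present in all 20 BRP cells, at 14.4, 40.1 and 136.7 CPM in BRP528 to BRP543 and at 6.55, 39.6 and 53.3 in BRP564 to BRP572. In the F cells it was split, with 177.6 CPM in F2, 112.0 in F24 and 26.9 in F1, and 0.23 or less in the other 5. The medians of the BRP blocks lay within the spread of either block.

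Cux2, on chr5:121856366-122050102 (minus strand), was low throughout. It was present in 7 of 12 cells of BRP528 to BRP543 at 0, 1.84 and 14.5 CPM, in 5 of 8 of BRP564 to BRP572 at 0, 0.71 and 9.23, and in 5 of 8 F cells at 0, 0.18 and 25.0. With single cells left out, the median ranged from 0.15 to 3.54 in BRP528 to BRP543 and from 0.10 to 1.31 in BRP564 to BRP572. The highest F cells for Cux2 were F6 at 25.0 and F2 and F7 at 14.6 each, of which F2 was also the highest for Cux1 while F6 had no and F7 had 1 exonic count of it. The 3 blocks overlapped over nearly their whole range.

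Depth differed between the cells, so detection was also counted after thinning each cell to 1000000 exonic counts, which left out F16. Of 12 cells of BRP528 to BRP543, 8 of BRP564 to BRP572 and 7 F cells, Tbr1 was then present in 11, 1 and 0, Neurod1 in 11, 0 and 0, Neurod2 in 9, 0 and 3, and Neurod6 in 9, 0 and 0. Bcl11a was present in 12, 7 and 6, Bcl11b in 7, 6 and 5, Fezf2 in 1, 6 and 0, Cux1 in 12, 8 and 3, and Cux2 in 6, 4 and 4. At equal exonic depth no count of Tbr1, Neurod1 or Neurod6 was thus seen in the 7 F cells, while F16, which was left out, had been the highest F cell for Neurod1 and Neurod6 and also held a Tbr1 count. Fezf2 was still found in most of BRP564 to BRP572.

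Compared between genes per kilobase of merged exons, the median level in BRP528 to BRP543 was 12.9 CPM per kb for Neurod1, 11.02 for Neurod2, 7.64 for Tbr1 and 7.39 for Neurod6. It was 3.91 for Bcl11a, 2.11 for Bcl11b, 2.00 for Cux1, 0.18 for Cux2 and 0 for Fezf2. Neurod1 and Neurod2, both short genes, thus led on this scale, although the ranges over cells of every neighbouring pair in this order overlapped. In BRP564 to BRP572 the order was led by Cux1 at 1.98 and Bcl11b at 1.08 CPM per kb, and in the F cells no median exceeded 0.23.

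Block means were then compared as the log2 ratio of mean CPM with 1 added, which understates the difference of genes with low levels. Of the 12774 genes with a mean of at least 1 CPM over the 28 cells, all 9 members among them, 13.4% were past 4-fold higher in BRP528 to BRP543 than in BRP564 to BRP572. Among the members these were 5 of 9, with log2 ratios of 6.48 for Neurod6, 5.67 for Neurod1, 5.11 for Neurod2, 4.76 for Tbr1 and 2.92 for Bcl11a. In the opposite direction 15.4% of genes and 1 member, Fezf2 at -2.65, were past 4-fold. The median over the members was 2.92 beside -0.10 over all genes tested.

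The Fezf2 ratio rested on 1 cell, and it was -0.94 without BRP568. Bcl11b at 1.60, Cux2 at 0.65 and Cux1 at 0.50 were within 4-fold. The Bcl11b ratio was -0.24 without BRP528 and 2.12, past 4-fold, without BRP568. The Neurod6 ratio was 5.35 without BRP534 and the Tbr1 ratio 5.99 without BRP566.

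Against the F cells the background was uneven, since 47.0% of genes were past 4-fold higher in BRP528 to BRP543 and 8.34% past 4-fold higher in F, with a median log2 ratio of 1.82 over all genes. Members past 4-fold higher in BRP528 to BRP543 were 4 of 9, a share near that background, with log2 ratios of 6.06 for Neurod6, 5.36 for Neurod1, 5.31 for Tbr1 and 4.63 for Neurod2. Bcl11b was the 1 member past 4-fold higher in F, at -2.60, and at -0.93 without F6 or -4.44 without BRP528. By block medians its direction was reversed, with 17.2 CPM in BRP528 to BRP543 and 0.97 in F, and it was then among the members past 4-fold higher in BRP528 to BRP543. Bcl11a at 1.40, Cux1 at 0.35, Fezf2 at 0.27 and Cux2 at -0.48 were within 4-fold, although Bcl11a was at 3.40, past 4-fold, without F1. Without F2 the Cux1 ratio was 1.30, and without F6 the Cux2 ratio turned to 0.10. By block medians Bcl11a (51.5 beside 3.04 CPM) and Cux1 (40.1 beside 0.17) were also past 4-fold higher in BRP528 to BRP543. The median over the members was 1.40, below that over all genes.

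This comparison depended on scaling for Bcl11b and the weaker members. Bcl11b was at -3.50 with TMM factors and at -4.80 with DESeq2 size factors. With TMM factors the median of all genes was 1.06, Bcl11a was 0.45 and Cux1 turned to -0.55, and with DESeq2 size factors the median was 0.63, Bcl11a turned to -0.48 and Cux1 to -1.57, while Cux2 at -2.60 became past 4-fold higher in F. The 3 Neurod genes and Tbr1 stayed between 3.12 and 6.09 on the 4 scalings run. The share of all genes past 4-fold in each direction became 35.7% and 15.9% with TMM factors and 34.2% and 22.8% with DESeq2 size factors.

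Between F and BRP564 to BRP572, 11.2% of genes were past 4-fold higher in F and 50.6% past 4-fold higher in BRP564 to BRP572, with a median log2 ratio of F over BRP564 to BRP572 of -2.05. Bcl11b was the only member past 4-fold higher in F, at 4.20, or 2.53 without F6, and Fezf2 the only one past 4-fold higher in BRP564 to BRP572, at -2.92, or -1.21 without BRP568. The other 7 members lay between -0.55 for Tbr1 and 1.52 for Bcl11a. With TMM factors Bcl11a at 2.61 and Cux2 at 2.26 were past 4-fold higher in F as well, and with DESeq2 size factors Bcl11a at 3.73, Cux2 at 3.56 and Cux1 at 2.36. Bcl11b itself was at 5.23 with TMM factors and at 6.66 with DESeq2 size factors. By block medians no member was past 4-fold higher in F, and Bcl11b was reversed, past 4-fold higher in BRP564 to BRP572 at 8.77 beside 0.97 CPM, as was Cux1 at 39.6 beside 0.17. The Bcl11a value became -0.48 without F1, and Tbr1 turned positive, to 0.33, with TMM factors, to 1.04 with DESeq2 size factors and to 0.68 without BRP566. Cux1, at 0.15, turned to -0.81 without F2 and to -0.73 when counts were scaled to the total of exonic and intronic counts. With TMM factors the shares of all genes past 4-fold were 19.5% and 39.0%, and with DESeq2 size factors 27.8% and 35.9%. The 3 comparisons share their cells and are given side by side.

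**Figure D3:**
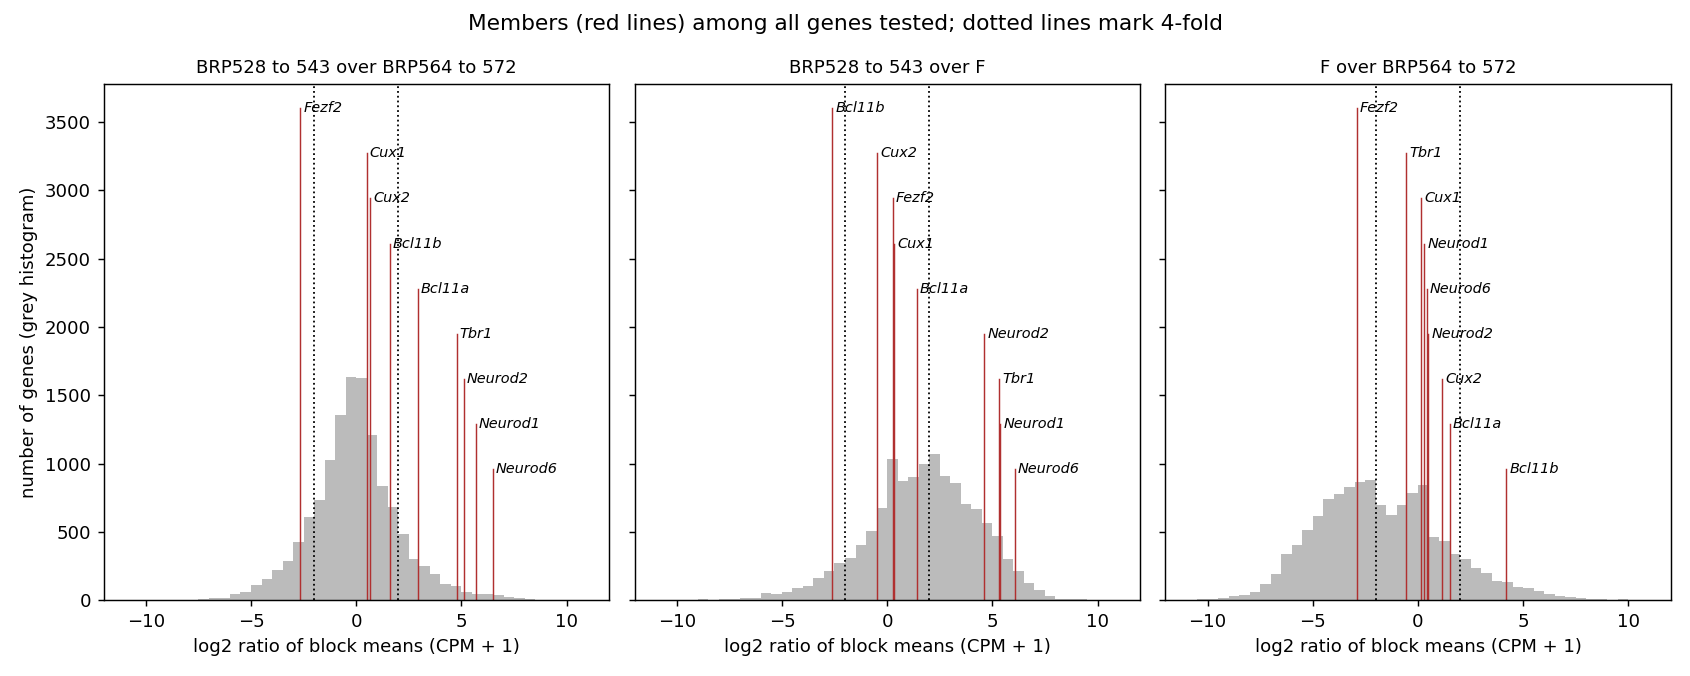
Log2 ratio of block mean CPM with 1 added, for the 12774 genes tested (grey histogram, number of genes on the y axis) and the 9 genes (red lines, whose heights only separate the names), in 3 comparisons of blocks. Dotted lines mark 4-fold. The Neurod genes and Tbr1 lie between 4.76 and 6.48 in the left panel, and the histogram is shifted off 0 in the panels that include the F cells, with medians of 1.82 and -2.05.

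Other genes of the projection neuron lineage gave a mixed picture. Of 32 listed genes, 28 entered the comparison, and 5 were past 4-fold higher in BRP528 to BRP543 than in BRP564 to BRP572, where 13.4% of all genes were. Among them were Myt1l (neuronal repressor of other fates, log2 ratio 5.66), Mef2c (activity-regulated factor, 5.56), Bhlhe22 (a bHLH repressor of postmitotic neurons, 5.50) and Emx1 (dorsal forebrain homeobox factor, 2.51). Another 7 were past 4-fold in the opposite direction, in which 15.4% of all genes lay, namely Rorb, Zfpm2, Pax6, Nfia, Nfib, Nr2f2 and Crym, with Pax6 at -3.56 and Nfia at -2.62. The median of the 28 was -0.76.

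The upstream genes were sparse. Neurog2, the proneural factor that precedes the Neurod genes, had at least 10 counts in 5 of the 12 cells and in 1 cell of BRP564 to BRP572. Eomes, the marker of intermediate progenitors, reached that minimum in 1 cell, BRP540, at 4.35 CPM. Against the F cells, 17 of the 28 lineage genes were past 4-fold higher in BRP528 to BRP543, beside 47.0% of all genes, and 2, Tle4 and Etv1, past 4-fold higher in F, beside 8.34%. Each of these 2 rested on 1 cell. F24 held 14088 CPM of Tle4, a repressor found in corticothalamic neurons, and without it the log2 ratio of BRP528 to BRP543 over F turned from -5.26 to 2.27. F6 held 99.95% of the F counts of Etv1, a marker of layer 5 neurons, and without it that ratio turned from -2.49 to 3.91. Between the other pair of blocks, 17 of 28 were past 4-fold higher in BRP564 to BRP572 than in F, beside 50.6% of all genes, and 4 (Tle4, Etv1, Mef2c and Myt1l) the other way, beside 11.2%. The log2 ratio of F over BRP564 to BRP572 turned from 5.09 to -2.44 for Tle4 without F24 and from 2.06 to -4.34 for Etv1 without F6. That of Mef2c stayed at 4.43 or above and that of Myt1l at 5.46 or above without each cell in turn.

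The partners and inhibitors of the Neurod proteins did not follow the Neurod genes past 4-fold between the BRP blocks. Among 9 such genes, 0 were past 4-fold higher in BRP528 to BRP543 than in BRP564 to BRP572 and 4 were lower, beside 13.4% and 15.4% of all genes. These were Id1 (log2 ratio -5.98), Id3 (-3.69) and Id4 (-3.35), which bind E proteins and keep them from DNA, and the Notch target Hes1 (-3.01). The others lay between -1.63 for Tcf12 and 0.27 for Tcf4. Id3 had a lowest level of 1650, a median of 2502 and a highest of 3313 CPM in BRP564 to BRP572, and in BRP528 to BRP543 the corresponding levels were 0, 0.15 and 1123, the highest being BRP529. The E protein gene Tcf4 was present in all 28 cells, with medians of 464.1 CPM in BRP528 to BRP543, 380.8 in BRP564 to BRP572 and 1727 in F. Of the 9, 6 were past 4-fold higher in BRP528 to BRP543 than in F and 8 past 4-fold higher in BRP564 to BRP572 than in F, beside 47.0% and 50.6% of all genes. By block means none was past 4-fold higher in F than in either BRP block, Tcf4 being higher in F within 4-fold. The Tcf4 medians of F and BRP564 to BRP572 were more than 4-fold apart.

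Interneuron lineage factors gave a mixed picture between the BRP blocks. Their median log2 ratio of BRP528 to BRP543 over BRP564 to BRP572 was -0.19, beside -0.10 over all genes. Markers of other cells differed between the blocks, and the part of either in the members' levels was not tested. Of 8 interneuron lineage genes that entered, 2, Lhx6 among them, were past 4-fold higher in BRP528 to BRP543 than in BRP564 to BRP572. Another 2 (Sox6 and Sp8) were lower, beside 13.4% and 15.4% of all genes. BRP528, at 111.2 CPM, held 96.7% of the Lhx6 counts of BRP528 to BRP543, so the Lhx6 call rested on this cell. Against BRP528 to BRP543, F was past 4-fold higher in Dlx1 and Satb1, and lower in Dlx2, beside 8.34% and 47.0% of all genes. Against BRP564 to BRP572 it was higher in 4 and lower in 3 of the 8, beside 11.2% and 50.6%. Neuronal markers were past 4-fold higher in BRP528 to BRP543 than in BRP564 to BRP572 for 5 of 7, glutamatergic for 2 of 2 that entered and GABAergic for 3 of 4. BRP528 held 22808 of the Gad1 counts of the first block, with at most 4 in any other cell of it. It also held 16013 of the block's 16015 Slc32a1 counts, so the Gad1 and Slc32a1 calls rested on BRP528. The GABAergic markers were past 4-fold higher in F than in either BRP block for 4 of 4. Of the astrocyte markers, 8 of 10 were past 4-fold higher in BRP564 to BRP572 than in BRP528 to BRP543 and 1, Slc1a2, was lower. The neuronal marker Rbfox3 was at or under 0.15 CPM in all 8 cells of BRP564 to BRP572. In F it had counts in 4 of 8 cells, at most 8.87 CPM. Of the other neuronal markers, Map2 (236.4 to 484.3 CPM), Stmn2 (53.8 to 433.4) and Tubb3 were present in all 8 cells of BRP564 to BRP572. Syt1 was present in 6 of them, Snap25 in 2 and Nefl in 1. The astrocyte gene Aqp4 had at least 10 counts in 7 of the 12 cells of BRP528 to BRP543 and in none of F.

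The summed oligodendrocyte lineage markers ranged from 0.52 to 1306 CPM in BRP528 to BRP543, from 563.4 to 1312 in BRP564 to BRP572 and from 0 to 3387 in F. Microglial markers ranged from 0 to 46.6, from 0.81 to 16.4 and from 0.067 to 2093 CPM in that order, and endothelial markers from 0 to 31.5, from 0.10 to 29.5 and 0 in all F cells. The progenitor or dividing cell markers ranged from 0.19 to 249.5 CPM, from 262.9 to 734.2 and from 0 to 3.69. Endothelial markers were thus low in every cell. Oligodendrocyte lineage and progenitor sums were high in every cell of BRP564 to BRP572, with Olig1 at 431.5 CPM or more and Nes at 243.8 or more. In BRP528 to BRP543 and in F, high sums of the markers of this paragraph lay in some cells only. The high astrocyte, oligodendrocyte lineage and microglial sums of F7 and F16 rested mainly on Slc1a2 and Glul, on Olig1 or on Csf1r.

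Cells differed in how many members they held. BRP538 had all 9 at 10 counts or more, and the 12 cells of BRP528 to BRP543 had between 5 and 9, with a median of 6. In BRP564 to BRP572 it was between 3 and 5, and in F between 0 and 4. F11, F12 and F16 had no member at 10 counts.

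Within BRP528 to BRP543, Bcl11a and Cux1 were together in all 12 cells and Tbr1 and Bcl11b, which mark different deep-layer fates, in 6. Bcl11b and Neurod6 were together in 4. Over the 28 pairs of the 8 members with counts in at least 6 of these cells, Spearman correlations ranged from -0.62 for Bcl11a with Neurod1 to 0.76 for Neurod6 with Cux1, with a median of -0.01 and 14 pairs above 0. Tbr1 with Bcl11b gave -0.32, Bcl11b with Neurod6 -0.51 and Neurod1 with Cux2 -0.57. These describe 12 cells and carry no test.

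For each of those 8 members, the 3 genes whose levels were ordered most like it over the 12 cells were taken from 9507 genes with enough counts, and their Spearman correlations ranged from 0.84 to 0.93. They were St3gal5, Ccdc175 and Fam78b for Tbr1, Rtn3, Fzd1 and Alg14 for Bcl11a, and Rpl3, Sdf4 and Cand1 for Bcl11b. For the bHLH genes they were Elof1, Letm1 and Sav1 for Neurod1, Eny2, Cacul1 and Sart3 for Neurod2, and Dusp18 and Naa25 among those for Neurod6. For the homeobox genes they were Necab1, Fbxo31 and Chn1 for Cux1 and Trappc11, Set and Tnr for Cux2. Values this high are the top of 9507 over only 12 cells, and no other member was among them.

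Introns divided the members differently. Tbr1, Fezf2 and Neurod2 had 0 intronic counts in all 28 cells, beside 17360, 926 and 11280 exonic counts. Neurod1 had 258, all in BRP540, and Neurod6 had 93 over 4 cells. Of the 93, 72 lay in BRP566 and BRP571, which had no Neurod6 exonic count. The introns of the 3 Neurod genes are short, 1.50, 1.09 and 1.29 kb in the annotation, and those of Tbr1 sum to 5.70 kb.

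For Tbr1 and Neurod2 the 0 was not particular to the gene. Tbr1 lies in a run of 100 neighbouring genes on the plus strand of chr2:37266951-80400525 that were all at 0 in the intronic table while 93 of them had exonic counts. Neurod2 lies in such a run of 323 genes on the minus strand of chr11:75164565-115491862, 302 with exonic counts. Over these stretches the absence of intronic counts says nothing on the transcription of either gene. Fezf2 stood alone, its neighbours on the strand having intronic counts.

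The long genes carried most intronic counts. Cux1, whose introns span 299.3 kb, had an intronic count in all 28 cells, and introns held 72.7% of its counts in BRP528 to BRP543, 62.9% in BRP564 to BRP572 and 87.8% in F. Of the F cells' 11704 Cux1 intronic counts, 72.6% lay in F7, which had 1 exonic count. F7 was also the F cell with the highest summed astrocyte and oligodendrocyte lineage markers, carried mainly by Slc1a2, Glul and Olig1. Bcl11a had 41.6%, 62.6% and 96.3% of its counts in introns in the same order of blocks, but each share leaned on 1 cell. It was 27.3% without BRP540, 8.11% without BRP572 and 12.1% without F6, which held 99.5% of the 59665 intronic counts in F.

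F6 thus carried 59364 intronic and 108 exonic counts of Bcl11a, and 13082 intronic and 301 exonic counts of Cux2. The reverse was seen for Bcl11b in the same cell, with 26575 exonic and 0 intronic counts, although its introns span 85.1 kb. Bcl11b introns held 10.4% of its counts in BRP528 to BRP543 and 13.1% in BRP564 to BRP572. The first share was 22.5% without BRP528 and 6.01% without BRP534, and the second 5.07% without BRP568. The intronic share over all genes had a median of 15.7% in BRP528 to BRP543, 8.75% in BRP564 to BRP572 and 50.4% in F. Bcl11a and Cux1 overlap noncoding genes on the opposite strand by 316 and 394 exon bases, and whether the counts used strand is not given in the sources used here.

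**Figure D4:**
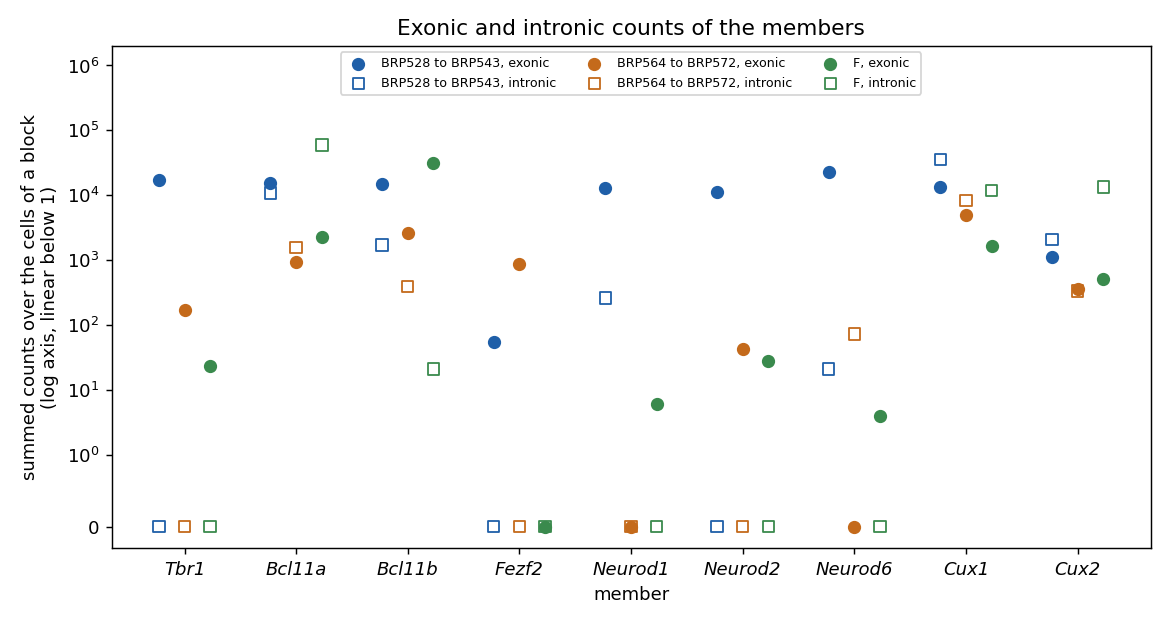
Exonic (filled circles) and intronic (open squares) counts of the 9 genes, summed over the cells of each block of column codes, on an axis that is logarithmic above 1 and linear below. Tbr1, Fezf2 and Neurod2 have intronic sums of 0 in all blocks, whereas Bcl11a in F has 59665 intronic and 2298 exonic counts.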

How the data were processed

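Single-cell RNA-seq of 28 mouse cortical cells was used as deposited. The authors deposited raw whole-number counts per gene and cell, in one table for exons and one for introns, and no normalization was applied by them. Per the labels' processing notes, bcl2fastq 2.17, STAR 2.4.0 and the mm10 build were used, without their role for these counts, and the counting tool, annotation and strand setting are not given in the sources used here. Per the labels, libraries of cultured cells were made with a modified TruSeq Nano DNA kit and those of sliced interneurons with a TruSeq Stranded kit, on different sequencers. Of the 28 columns, 0 could be matched to a labelled sample, so the tables were treated as 1 pooled sample. Cells and blocks of column codes are described without p-values, and the BRP codes were split by number.

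CPM was computed here as exonic counts per 1000000 exonic counts of the cell. Block means were compared with a pseudocount of 1 CPM among genes with a mean of at least 1 CPM, and a 4-fold difference was counted. Detection was taken at 1 and at 10 counts, with 95% exact binomial (Clopper-Pearson) intervals for shares of cells. Genes named beside the members came from lists of lineage factors, bHLH partners and inhibitors, and cell type markers, and from the 3 genes of highest Spearman correlation for each member with at least 10 counts in 6 or more of the 12 cells. The members and lists were chosen with earlier results of these data known. A few genes of these lists are not reported here. Positions, exon lengths and overlaps come from GENCODE M21 and promoters from RefSeq, where all 9 members matched. The ratio was tested on simulated Poisson counts with 1 mean per gene for all cells, raised in BRP528 to BRP543 for 200 of 12774 genes. All 200 of these and 0 of the others were past 4-fold higher. The simulated cells differed only by depth and counting error, so this checked the calculation and not how single high cells affect it. Python 3.11.15, numpy 2.4.6, pandas 2.3.3, scipy 1.17.1 and matplotlib 3.10.9 were used, and R 4.3.3 with edgeR 4.0.16 (TMM factors) and DESeq2 1.42.0 (size factors) for scaling only. Alternatives were these scalings, the total of exonic and intronic counts, added intronic counts, a pseudocount of 0.1, block medians, no filter, thinning, each cell left out in turn, and, chosen after seeing the data, leaving out BRP528 and BRP529 or F11, F12 and F16, and leaving out each cell in turn for the intronic shares and the lineage genes.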

Additional observations from a re-analysis of the deposited data

How the results depend on the processing

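The count of members past 4-fold higher in BRP528 to BRP543 than in BRP564 to BRP572 was 5 and stayed within 1.5 times of that under all alternatives run, at 5 to 6 without each cell in turn. The other counts moved. Higher in BRP564 to BRP572 than in BRP528 to BRP543 there was 1 member, 0 with block medians and 0 to 1 without each cell (0 without BRP568). Higher in BRP528 to BRP543 than in F there were 4, 7 with block medians (also Bcl11a, Bcl11b and Cux1) and 4 to 5 without each cell (5, with Bcl11a, without F1). Higher in F than in BRP528 to BRP543 there was 1, Bcl11b, 2 with DESeq2 size factors (also Cux2), 0 with block medians and 0 to 1 without each cell (0 without F6). Higher in F than in BRP564 to BRP572 there was 1, 3 with TMM factors, 4 with DESeq2 size factors, 2 with a pseudocount of 0.1, 0 with block medians, and 2 without F11, F12 and F16. Higher in BRP564 to BRP572 than in F there was 1, 2 with block medians (Bcl11b and Cux1, not Fezf2) and 0 to 1 without each cell (0 without BRP568). Of the lineage genes past 4-fold higher in F, Tle4 and Etv1 were reversed without 1 cell. The log2 ratio of BRP528 to BRP543 over F ran from -5.81 to 2.27 (without F24) for Tle4 and from -3.07 to 3.91 (without F6) for Etv1 over the cells left out. That of F over BRP564 to BRP572 ran from -2.44 (without F24) to 5.43 and from -4.34 (without F6) to 2.25. A block median ignores single high cells by construction, and the cause of the other shifts was not tested.

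Of 360 medians of CPM recomputed, 354 stayed within 1 SD of the cells' log2(CPM + 1) values. That limit is wide, and single cells left out moved the Tbr1 median of BRP528 to BRP543 from 41.9 to between 24.4 and 59.5 CPM and the Cux2 median from 1.84 to between 0.15 and 3.54. Of 81 counts of cells in which a member was present, 64 stayed within the 95% binomial interval of the share. The 17 that did not were 8 with intronic counts added, all higher (Bcl11a, Bcl11b, Cux1 and Cux2), and 5 at a minimum of 10 counts and 4 after thinning, all lower (Tbr1, Bcl11b and the Neurod genes, in F except for Neurod2 in BRP564 to BRP572). No paired analysis was possible because the columns carry no replicate number and no test was made. Depth limits the F cells, of which F16 had 838343 exonic counts. A count of 0 in them therefore allows more than a count of 0 elsewhere.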
